A study of Mus musculus with 6 samples.

Results

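The silencing machinery of heterochromatin and retroelements was followed through 10 genes, which were picked by name from the 54532 genes of the deposited table: Trim28, Setdb1, Atf7ip, Suv39h1, Mphosph8, Pphln1, Morc2a, Morc3, Smchd1 and Hells. RNA sequencing had been performed on immortalized cardiosphere-derived cells, which the labels call iCDCs and the study iECDCs, a C57BL/6 mouse line grown from the epicardium of the heart ventricle and kept dividing by a human telomerase gene delivered with a lentivirus and puromycin selection. All 6 libraries came from this line at passage 30. The 3 control libraries are named in the labels as control cells and the 3 induced libraries as cells given 5-azacytidine (5-aza), a cytidine analog that traps DNA methyltransferases and serves to induce differentiation towards cardiac cells. By the labels, the drug was given at 10 µM over 3 days and the cells were kept in IMDM with 2% serum for 4 weeks afterwards, whereas the methods of the study describe another medium and a shorter culture. How the control cells were kept over that time is not described, so drug, serum and time in culture cannot be told apart. The libraries of a group are labelled as separate samples, but separate cultures are not stated, and the p-values measure the spread between these libraries only.

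Constitutive heterochromatin is built on methylation of lysine 9 of histone H3 (H3K9), which is read by HP1 proteins and is passed on together with DNA methylation when chromatin is copied. KRAB zinc finger proteins bind retroelements and recruit TRIM28, which brings in the H3K9 methyltransferase SETDB1 with its cofactor ATF7IP, while the HUSH complex (MPHOSPH8, PPHLN1 and TASOR) silences young transposons and integrated genes with the help of MORC2A. SUV39H1 methylates H3K9 at pericentromeric repeats, HELLS remodels nucleosomes so that repeats can be methylated, SMCHD1 holds the inactive X chromosome and some gene clusters silent, and MORC3 represses endogenous retroviruses. The table lists annotated genes, and transcripts of the retroelements themselves were not analysed here.

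Library totals were 19041133 to 19823369 counted reads, with reads on 19591 to 20501 genes. The 5 mesenchymal genes summed to 8008 to 8362 CPM (counts scaled to a common library size with TMM factors) in control and 6203 to 6794 CPM in induced cells, most of it from Col1a1. Of these genes, 3 fell (Pdgfra, Ly6a and Col1a1) while Thy1 and Eng rose. The small rise of Eng (0.12, adjusted p = 0.019, edgeR) lost its call under library totals and at an adjusted p of 0.01. It was also lost without control replicate 1, 2 or 3 or induced replicate 1. Of 4 epicardial genes, Upk3b, Wt1 and Tcf21 rose and Tbx18 fell (-0.33, adjusted p = 0.000429, edgeR), and their sum, carried mostly by Upk3b, was 348 to 359 CPM in control and 1021 to 1144 CPM in induced cells. Of the 5 cardiomyocyte genes, Tnnt2 rose from 11.4 to 14.6 CPM to 56.1 to 59.9 CPM, while Myh6, Actn2, Myl2 and Nppa stayed at or below 0.421 CPM. Endothelial genes summed to 0.255 to 0.943 CPM, and the leukocyte genes Ptprc, Itgam, Cd52 and Tyrobp had 0 reads in all 6 libraries, whereas Cd68, of the same list of 5, rose from 1.72 to 2.15 CPM to 26.2 to 31.8 CPM. In these bulk libraries, fewer cells that express a gene and less RNA per cell cannot be told apart.

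Silencing factors were mostly lower in induced cells. Of the 10 genes, 7 fell and 0 rose by edgeR's quasi-likelihood test at a Benjamini-Hochberg adjusted p of 0.05, and 3 did not pass it. The count of genes that rose was also 0 at an unadjusted p of 0.05 in the same edgeR fit. It was 0 as well at the adjusted threshold with DESeq2 and with limma. Across all 14246 genes tested, 32.2% were lower, 32.6% were higher and 64.8% were called in either direction, so a call by itself was common. The groups did not overlap for 7 of the 10 silencing factors and for 68.6% of all genes tested. Their median log2 fold change, induced relative to control cells, was -0.28, against -0.01 over all genes tested. Suv39h1 and Hells fell most, Setdb1 and Trim28 fell next, Atf7ip, Smchd1 and Pphln1 fell least, and Mphosph8, Morc2a and Morc3 were not called.

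The promoters of 3 of these genes are shown first, because a match to an E2F motif was found in the 2 genes with the deepest falls and in none of the other 8. They are the RefSeq windows of 250 bases before to 50 after the start of transcription, on GRCm38.p6, written along the gene's strand. Capitals mark a match to an E2F octamer, TTTCCCGC, TTTGGCGC, TTTCGCGC or TTTGCCGC, searched on both strands. E2F factors bind such sites in front of genes used in DNA replication. The promoter of Hells lies at chr19:38930740-38931039 on the plus strand, the one of 2 Suv39h1 promoters with a match at chrX:8074312-8074611 on the minus strand, and the promoter of Setdb1, which fell without such a match, at chr3:95357153-95357452 on the minus strand.
Hells: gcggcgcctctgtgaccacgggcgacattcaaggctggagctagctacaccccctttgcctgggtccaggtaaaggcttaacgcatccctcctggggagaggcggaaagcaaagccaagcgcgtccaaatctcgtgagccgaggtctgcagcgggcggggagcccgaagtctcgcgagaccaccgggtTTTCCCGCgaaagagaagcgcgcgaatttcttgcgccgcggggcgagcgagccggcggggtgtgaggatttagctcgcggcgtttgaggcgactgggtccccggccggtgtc
Suv39h1: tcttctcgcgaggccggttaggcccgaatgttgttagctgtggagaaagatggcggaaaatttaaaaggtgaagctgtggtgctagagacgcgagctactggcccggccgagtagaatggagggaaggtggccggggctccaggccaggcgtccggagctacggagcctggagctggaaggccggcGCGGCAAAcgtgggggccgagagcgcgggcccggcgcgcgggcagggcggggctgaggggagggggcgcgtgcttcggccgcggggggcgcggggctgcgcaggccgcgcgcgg
Setdb1: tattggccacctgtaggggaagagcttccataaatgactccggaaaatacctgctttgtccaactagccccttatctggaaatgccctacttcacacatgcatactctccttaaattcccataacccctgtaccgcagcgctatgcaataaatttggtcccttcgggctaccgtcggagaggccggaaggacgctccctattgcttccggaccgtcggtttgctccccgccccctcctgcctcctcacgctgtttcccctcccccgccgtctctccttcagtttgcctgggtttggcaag

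All 10 genes had an entry, with 13 promoters in all, and 2 of the 10 genes held an octamer. In Hells it was TTTCCCGC on the gene's own strand, and its last base lay 55 bases before the RefSeq start. In Suv39h1 it was TTTGCCGC on the opposite strand, which reads GCGGCAAA in the line above, and it ended 57 bases before the RefSeq start. The other Suv39h1 promoter, at chrX:8074711-8075010, held none. That window is the one at the outer start of the gene as deposited (chrX:8061171-8074760, minus strand). By the deposited coordinates, both octamers lie inside the annotated gene, since Hells starts at chr19:38930915. Of all 32851 promoters in the reference, 744 (2.26%) held an octamer, and so did 477 of the 10323 tested genes with a promoter entry (4.62%). Of those 477 genes, 46.3% were lower in induced cells with a median log2 fold change of -0.16, compared with 32.2% and 0.01 for the 9846 tested genes without one. A second cell cycle motif, the hexamer TTTGAA, was found in 17.9% of all promoters and in 3 of the 10 genes, Atf7ip, Smchd1 and an alternative promoter of Morc2a. The share counts promoters, whereas the 3 are genes with a match in any of their promoters, 13 over the 10 genes. Apart from that alternative Morc2a promoter, which had 0 CpG dinucleotides, the windows held 15 to 53 CpGs, compared with a median of 7 and an upper quartile of 20 over all promoters. All promoters include those of genes not tested here, and for the hexamer and CpGs no background of tested genes alone was computed. A letter match describes the window and is not a bound site.

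TRIM28 and SETDB1 form the core of the pathway that KRAB zinc finger proteins direct. Trim28 (ENSMUSG00000005566, chr7:12999114-13031035, plus strand, coordinates as deposited, mm10) gave 381, 388 and 398 CPM in control libraries 1, 2 and 3 and 269, 250.5 and 251 CPM in induced libraries 1, 2 and 3. Every induced library was thus below every control library, with induced replicate 1 the highest of its group. The log2 fold change was -0.60 (SE 0.05, adjusted p = 2.05e-09, edgeR), from 389 ± 8.71 to 256.9 ± 10.5 CPM (mean ± SD, n = 3).

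Setdb1 (ENSMUSG00000015697, chr3:95323525-95357202, minus strand), the methyltransferase of the pathway, was measured at 55.3, 53.6 and 53.0 CPM in control libraries and at 32.4, 32.5 and 30.0 CPM in induced libraries. Both groups were tight and well apart. The log2 fold change was -0.77 (SE 0.06, adjusted p = 1.35e-09, edgeR), from 54.0 ± 1.18 to 31.6 ± 1.40 CPM (SD, n = 3). Of its exon bases, 4.73% overlap Cers2 and Gm37500 on the other strand. Cers2 reads went the other way, from 5952 in control to 7753 in induced libraries, and the strand setting of the counting is not given in the sources used here.

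Atf7ip (ENSMUSG00000030213, chr6:136506167-136610862, plus strand) encodes the partner that keeps SETDB1 in the nucleus and stable. Its levels were 95.1, 97.3 and 84.5 CPM in control cells and 74.2, 76.1 and 74.7 CPM in induced cells. Control replicate 3 was the lowest control library, yet lay above all induced ones. The fall was smaller than for Setdb1, with a log2 fold change of -0.30 (SE 0.06, adjusted p = 0.000209, edgeR), from 92.3 ± 6.87 to 75.0 ± 0.97 CPM (SD, n = 3).

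Suv39h1 (ENSMUSG00000039231, chrX:8061171-8074760, minus strand), the methyltransferase of pericentromeric heterochromatin, showed the deepest fall of the 10 genes. Control libraries held 26.3, 29.8 and 28.5 CPM, and induced libraries held 9.09, 6.47 and 6.76 CPM. All induced libraries were far below the control range, and induced replicate 1 was the highest of them. The mean went from 28.2 ± 1.75 to 7.44 ± 1.43 CPM (SD, n = 3), a log2 fold change of -1.92 (SE 0.11, adjusted p = 2.89e-11, edgeR) or a drop of 3.79-fold. Only 2.23% of all genes tested had a lower log2 fold change. The antisense gene Gm14820 overlaps 14.6% of its exon bases and had 0 reads in control and 2 in induced libraries, against 1672 and 423 reads for Suv39h1. Its paralog Suv39h2, with a related activity, was not called (log2 fold change -0.07, adjusted p = 0.75, edgeR).

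**Figure D1:**
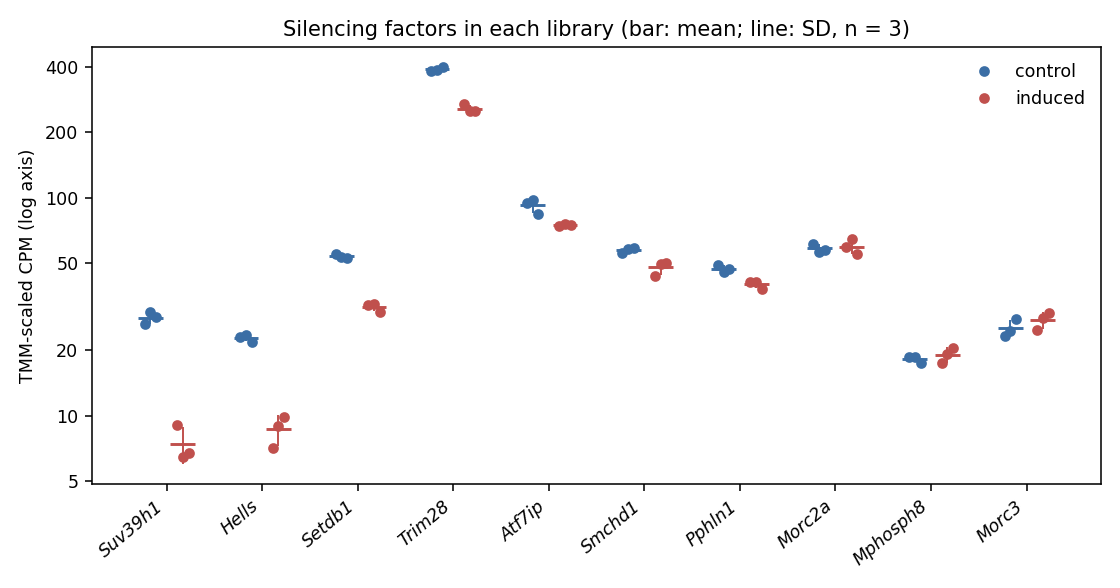
TMM-scaled CPM (log axis) of the 10 silencing factors, ordered by fold change, with 1 point per library, a bar for the mean and a line for the SD of 3 libraries. The points of control and induced cells are apart for the 7 genes from Suv39h1 to Pphln1 and mix for Morc2a, Mphosph8 and Morc3.

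Of the HUSH genes, Pphln1 was called lower, and Mphosph8 and Tasor were not called. Mphosph8 (ENSMUSG00000079184, chr14:56668248-56697430, plus strand), which encodes the subunit that reads methylated H3K9, was measured at 18.5, 18.6 and 17.5 CPM in control and at 17.4, 19.3 and 20.4 CPM in induced cells. The groups overlapped, and the log2 fold change was 0.07 (95% interval -0.11 to 0.25, adjusted p = 0.514, edgeR). Its antisense neighbour Gm16973, which covers 10.7% of its exon bases, had 124 reads in control and 90 in induced libraries, against 1079 and 1084 for Mphosph8.

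Pphln1 (ENSMUSG00000036167, chr15:93398350-93491510, plus strand), which encodes the RNA-binding subunit periphilin, gave 49.1, 45.7 and 46.9 CPM in control and 41.2, 41.2 and 38.2 CPM in induced cells. No induced library reached the control range. The log2 fold change of -0.23 (SE 0.06, adjusted p = 0.00192, edgeR) was the smallest among the 7 genes called. Genes of its chromosome were shifted as well, since the 561 tested genes of chromosome 15 had a median log2 fold change of -0.24, and Pphln1 differed from that median by 0.00. For the other 9 genes the chromosome median lay between -0.06 and 0.17. The part of the chromosome-wide shift in the fall of Pphln1 was not tested.

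Tasor, listed in the table as Fam208a, encodes the scaffold of the complex. Its log2 fold change was 0.18 (adjusted p = 0.0795, edgeR), from 16.3 to 19.5 CPM in control to 19.4 to 21.7 CPM in induced cells, and the ranges overlapped by a narrow margin. Without control replicate 3 it was called higher (0.25, adjusted p = 0.0419, edgeR). Tasor2 (Fam208b), its paralog, was not called either (0.19, adjusted p = 0.102, edgeR), but was without induced replicate 1 (0.29, adjusted p = 0.0175) and with no filter.

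MORC proteins are ATPases that compact chromatin. Morc2a (ENSMUSG00000034543, chr11:3649494-3690477, plus strand), the effector that works with HUSH, was measured at 61.4, 56.5 and 57.7 CPM in control cells and at 59.2, 64.6 and 55.2 CPM in induced cells. Induced replicates 2 and 3 were the highest and the lowest of all 6 libraries. The log2 fold change was 0.03 (95% interval -0.10 to 0.16, adjusted p = 0.71, edgeR). Its sign depended on scaling and on 1 library, since it turned to -0.0086 with scaling by library totals and to -0.027 without induced replicate 2. The noncoding gene Tug1 overlaps 7.52% of its exon bases on the other strand and had 4237 reads in control and 4445 in induced libraries, against 3473 and 3397 for Morc2a.

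Morc3 (ENSMUSG00000039456, chr16:93832121-93876073, plus strand), a reader of histone H3 found in nuclear bodies, gave 23.3, 24.6 and 27.9 CPM in control and 24.8, 28.1 and 29.6 CPM in induced cells. The groups overlapped, and the log2 fold change was 0.12 (95% interval -0.05 to 0.30, adjusted p = 0.209, edgeR). Under the alternative fits it ran from 0.075 to 0.21, without a call. Morc4 fell by 0.57 on the log2 scale (adjusted p = 8.11e-06, edgeR). The germ cell gene Morc1, which silences transposons in spermatogonia, had 1 read over the 3 control libraries and 13 to 19 reads in each induced library. Its pooled ratio of induced to control was 47.9 with a 95% counting interval of 8.19 to 1935. It passed the low-count filter only through the induced libraries, so its test is not used here. Per length its mean in induced cells was 0.12 FPKM.

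Smchd1 (ENSMUSG00000024054, chr17:71344489-71475343, minus strand), an unusual SMC protein of the inactive X chromosome, was measured at 56.0, 58.5 and 58.9 CPM in control cells and at 44.0, 49.4 and 50.4 CPM in induced cells. The ranges did not meet, and induced replicate 1 was the lowest library. The mean went from 57.8 ± 1.52 to 47.9 ± 3.47 CPM (SD, n = 3), with a log2 fold change of -0.27 (SE 0.06, adjusted p = 0.000665, edgeR). Lrif1, whose product links SMCHD1 to HP1, was not called (-0.01, adjusted p = 0.938, edgeR).

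Hells (ENSMUSG00000025001, chr19:38930915-38971051, plus strand), the SNF2-type remodeler also called LSH, held 23.0, 23.5 and 21.8 CPM in control libraries and 7.12, 8.99 and 9.85 CPM in induced libraries. Induced libraries were all below the lowest control library, with replicate 1 the lowest, whereas for Suv39h1 that replicate was the highest. The mean went from 22.8 ± 0.84 to 8.66 ± 1.40 CPM (SD, n = 3), a log2 fold change of -1.39 (SE 0.11, adjusted p = 1.52e-09, edgeR) or a drop of 2.63-fold. CDCA7 brings HELLS to nucleosomes, and CDCA7L is a relative of CDCA7. The genes of both fell. Cdca7 went from 24.5 to 26.0 CPM in control to 5.05 to 6.03 CPM in induced cells (log2 fold change -2.14, adjusted p = 1.21e-12, edgeR). Cdca7l fell by 1.40 on the log2 scale (adjusted p = 1.62e-07, edgeR).

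Genes that work with the silencing factors were counted next. Of 29 partner genes, 27 passed the low-count filter, 26 of them in both groups and Morc1 through the induced libraries only. Of those 26 genes, 13 fell, 2 rose and 11 were not called, with a median log2 fold change of -0.26, beside 32.2% lower and 32.6% higher among all genes tested. Both genes of DNA methylation maintenance fell, Uhrf1 (-1.92), whose product recognises hemimethylated DNA, and Dnmt1 (-1.26), the maintenance methyltransferase, at adjusted p = 2.42e-15 and 6.34e-13 (edgeR). Chaf1a and Chaf1b, subunits of the chromatin assembly factor that loads histones at the replication fork, fell by 1.63 and 0.32 on the log2 scale. All 3 HP1 genes fell, Cbx3 by 0.47, Cbx5 by 0.35 and Cbx1 by 0.32. The euchromatic H3K9 methyltransferases Ehmt1 and Ehmt2 fell by 0.29 and 0.23, and Resf1, which encodes a SETDB1-associated protein, fell by 0.32. The 2 that rose were the de novo DNA methyltransferase Dnmt3a (0.44, adjusted p = 5.56e-07, edgeR) and the H4K20 methyltransferase Kmt5b (0.19, adjusted p = 0.019, edgeR), whose call was lost without control replicate 2 (adjusted p = 0.0884) or induced replicate 2 (adjusted p = 0.0672), under library totals (adjusted p = 0.0639) and with limma. Atrx and Daxx, which deposit histone H3.3 at repeats, were not called, at -0.07 and 0.09.

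**Figure D2:**
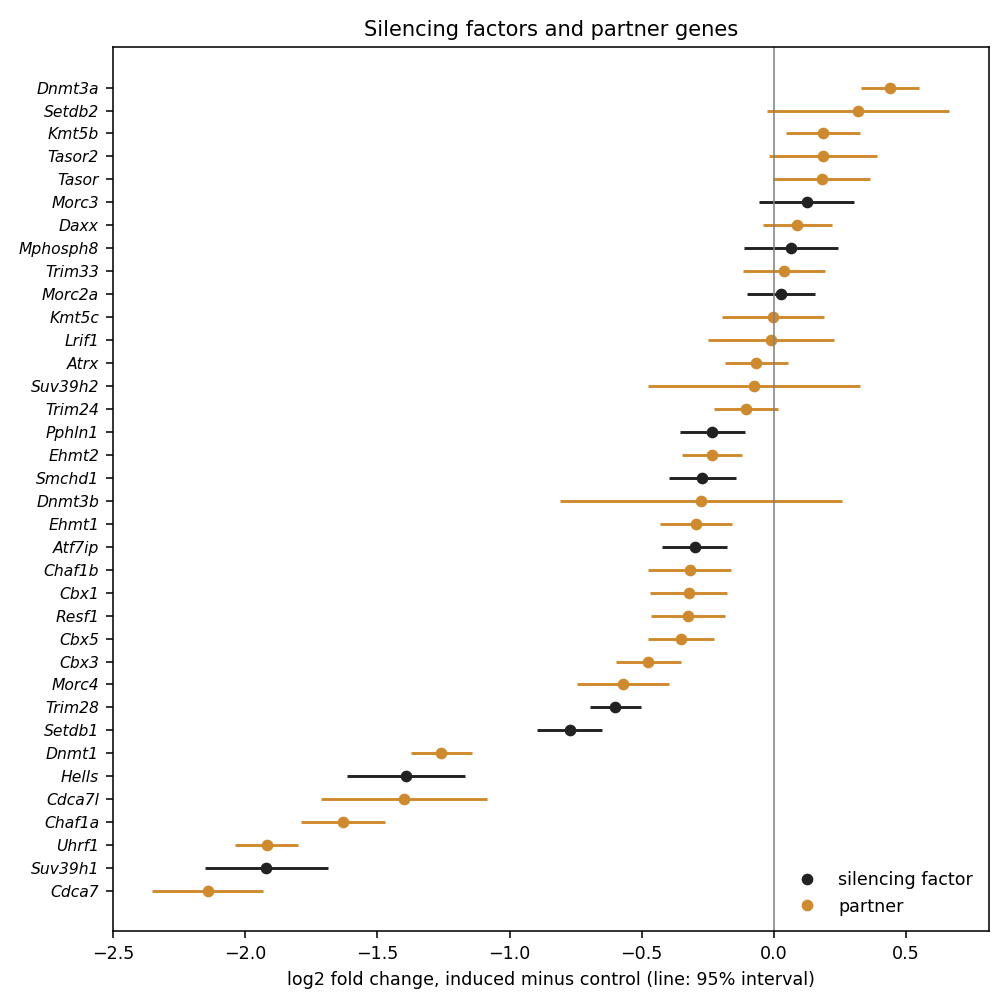
Log2 fold change (induced minus control) with its 95% interval for the 10 silencing factors (black) and 26 tested partner genes (orange, without Morc1, which had 1 control read), ordered by fold change. Suv39h1 and Hells sit at the low end among Cdca7, Uhrf1, Chaf1a, Cdca7l and Dnmt1, and the intervals of Morc2a, Mphosph8 and Morc3 cross 0.

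Proliferation genes moved with these falls. Of 15 such genes 14 fell and 1, E2f1, rose (0.27, adjusted p = 0.000377, edgeR), beside 32.2% lower and 32.6% higher among all genes tested. The summed level of the 15 genes went from 1371 to 1404 CPM in control to 574 to 585 CPM in induced cells. The median log2 fold change was -1.39, with Mki67 at -2.01, Top2a at -1.82 and Mcm5 at -1.79. The E2F octamer was present in 5 of the 13 proliferation genes with a promoter entry (Mcm3, Mcm5, Mcm6, Mcm7 and Cdk1) and in 6 of 23 partner genes (Uhrf1, Dnmt1, Cbx3, Morc4, Cdca7 and Kmt5c), of which Kmt5c was not called (log2 fold change -0.00). Deep falls were also seen without an octamer, among them those of Ccnb1 (-2.04), Mki67 (-2.01), Top2a (-1.82) and the partner Chaf1a (-1.63). The part of proliferation in the fall of the silencing factors was not tested.

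**Figure D3:**
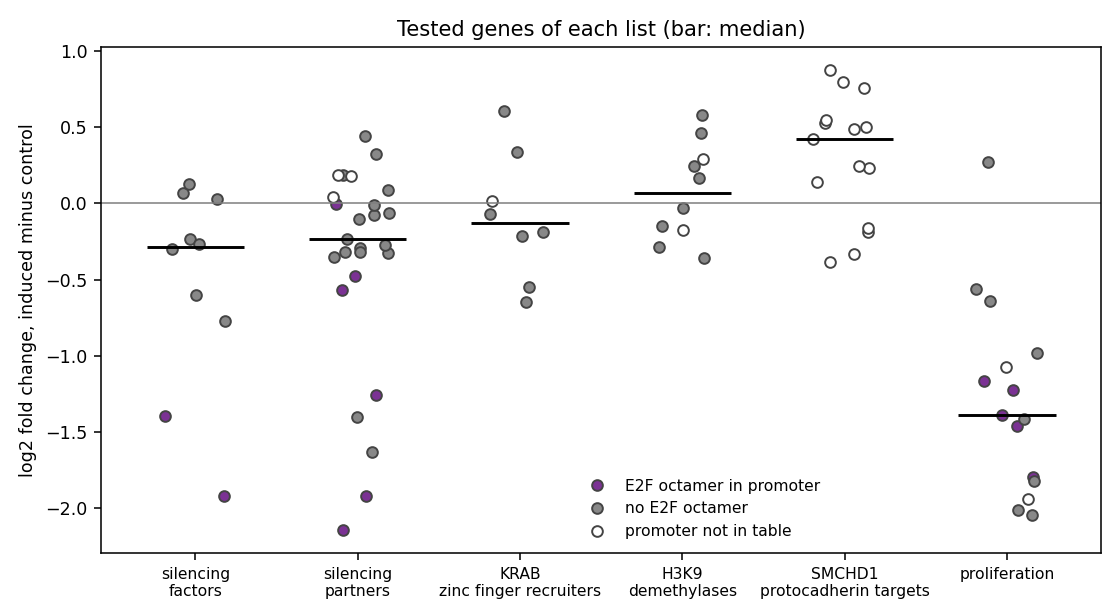
Log2 fold change of the tested genes of 6 lists, with 1 point per gene, a bar for the median of all tested genes, and colour for an E2F octamer in any promoter of the gene (Morc1 is left out of the points). Suv39h1 and Hells, the silencing factors with an octamer, lie at -1.92 and -1.39 and the other 8 between -0.77 and 0.12. The proliferation genes run from Ccnb1 at -2.04 to Pcna at -0.56, except E2f1, which lies at 0.27.

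Ratios of 2 genes within a library do not depend on scaling, and 9 pairs of genes were compared in this way with a two-sided exact permutation test, for which 3 against 3 libraries allow no p below 0.1. None of the 9 pairs could therefore pass 0.05, and the smallest adjusted p over the 9 pairs was 0.18. Groups without overlap were common for single genes, at 68.6% of all genes tested. No such share was computed over other pairs of genes, so a pair without overlap is given as a description only. Within the SETDB1 complex, the ratio of Atf7ip to Setdb1 was 1.72, 1.81 and 1.59 in control and 2.29, 2.34 and 2.49 in induced libraries. All induced libraries were thus higher, by 0.48 on the log2 scale (exact permutation p = 0.1). Trim28 to Setdb1 differed less, from 6.89, 7.23 and 7.52 in control to 8.31, 7.72 and 8.38 in induced libraries (log2 difference 0.17, exact permutation p = 0.1). Smchd1 to Setdb1 differed by 0.50 with no overlap (exact permutation p = 0.1).

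Within HUSH, Mphosph8 to Pphln1 stood at 0.377, 0.407 and 0.372 in control and at 0.423, 0.467 and 0.536 in induced libraries, again without overlap (log2 difference 0.30, exact permutation p = 0.1). Morc2a kept no clear shift against Mphosph8 (-0.04, exact permutation p = 1.0) or against Morc3 (-0.10, exact permutation p = 0.6), and both differences turned positive without induced replicate 3 (0.070 and 0.010). Set against Mcm3, a replication licensing gene that was 86.2 to 88.8 CPM in control and 37.4 to 41.0 CPM in induced cells (log2 fold change -1.16), the ratio of Suv39h1 went from 0.296, 0.345 and 0.330 to 0.222, 0.169 and 0.181, a log2 difference of -0.77 with no overlap (exact permutation p = 0.1). Mcm3 is among the proliferation genes that fell less, and Ccnb1 (-2.04), Mki67 (-2.01) and Ccna2 (-1.94) had lower log2 fold changes than Suv39h1, with no ratio computed against them. For Hells the ratio to Mcm3 was 0.258, 0.273 and 0.253 in control and 0.174, 0.236 and 0.263 in induced libraries, and the groups overlapped (-0.24, exact permutation p = 0.3). Hells to Suv39h1 was 0.784 in induced replicate 1 but 1.39 and 1.46 in the other two, so this difference of 0.53 also came with overlapping groups (exact permutation p = 0.3).

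**Figure D4:**
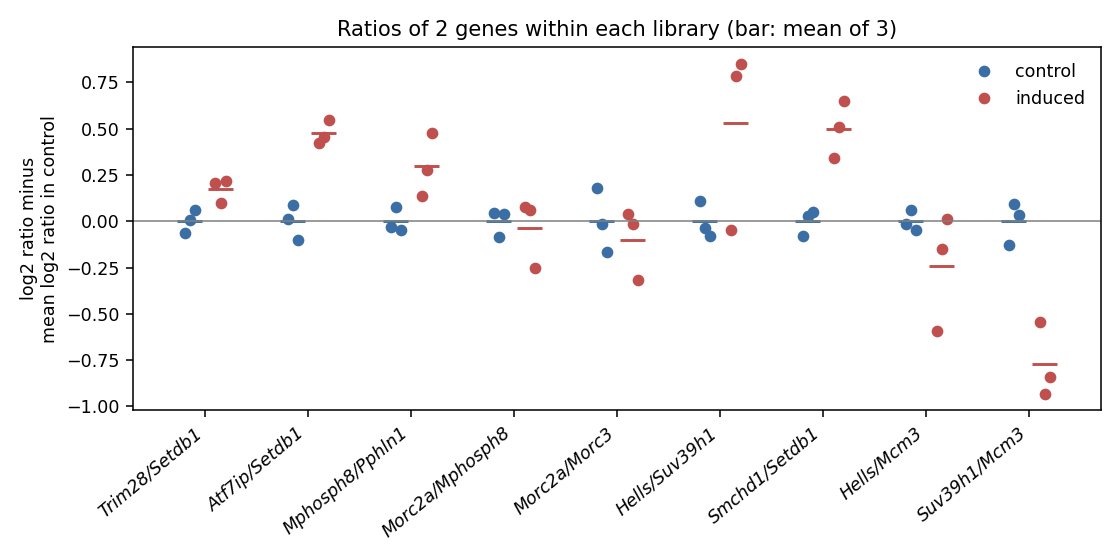
Log2 ratio of 2 genes in each library, minus the mean log2 ratio of the control libraries, for 9 pairs, with a bar for the mean of 3 libraries. Induced points lie apart from control points for 5 pairs (Trim28/Setdb1, Atf7ip/Setdb1, Mphosph8/Pphln1, Smchd1/Setdb1 and Suv39h1/Mcm3). The share of other gene pairs that lie apart was not computed, and 68.6% of all single genes tested did not overlap.

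Levels between genes were compared per length, with the deposited FPKM. Trim28 stood alone at the top, at 92.7 ± 2.19 FPKM in control and 61.7 ± 2.58 FPKM in induced cells (SD, n = 3). In control cells it was followed by Pphln1 (10.3 FPKM) and Morc2a (9.64 FPKM), whose libraries overlapped, and by Setdb1 (7.80 FPKM). Suv39h1 (5.30 FPKM), Mphosph8 (5.03 FPKM), Morc3 (4.61 FPKM) and Atf7ip (4.41 FPKM) came next, each overlapping its neighbour, and Hells (3.13 FPKM) and Smchd1 (2.86 FPKM) were lowest and apart from each other. In induced cells Suv39h1 (1.41 FPKM) and Hells (1.20 FPKM) had moved to the bottom of the order and overlapped, below Smchd1 (2.39 FPKM). Setdb1 (4.60 FPKM) had fallen below Mphosph8 (5.30 FPKM) and Morc3 (5.06 FPKM), which both lay below it in control cells, although libraries of Morc3 and Setdb1 overlapped.

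The order depended on the length used. The deposited length joins all exons of a gene, which gave 20726 bases for Atf7ip and 19982 for Smchd1, 2.57 and 2.83 times their principal transcripts. Per kilobase of the principal transcript, a choice made after the data were seen, Atf7ip rose from the eighth to the fourth place in control cells (11.6), where its libraries overlapped those of Setdb1 and Morc2a, and Smchd1 from the tenth to the seventh (8.29), while Trim28 stayed first (121) and Hells was last in both groups. With that length Setdb1 (6.69) did not fall below Morc3 (6.50) and Mphosph8 (6.39) in induced cells, and their libraries overlapped.

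**Figure D5:**
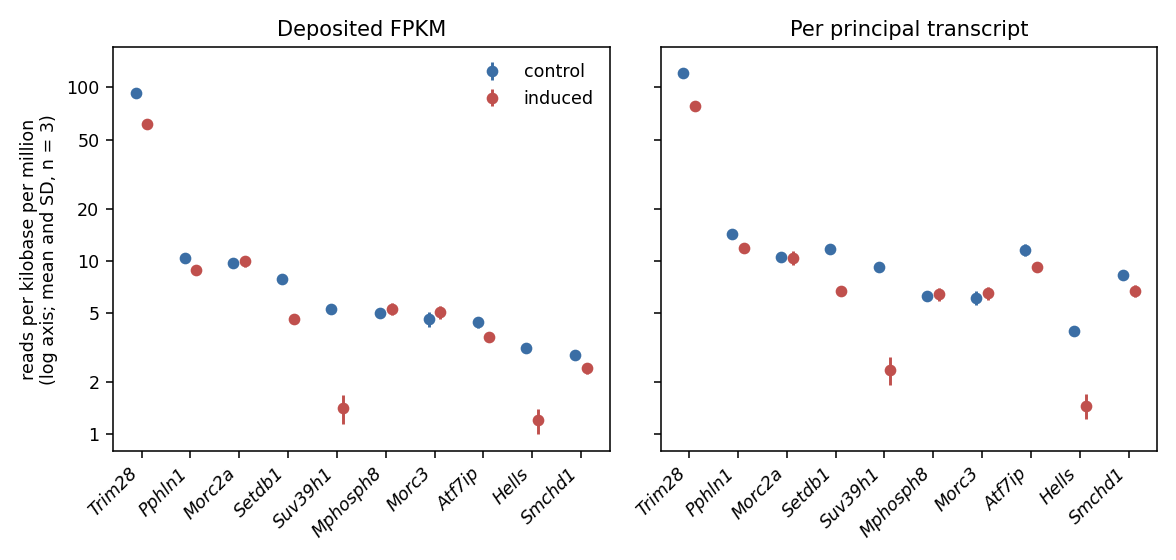
Level per length of the 10 silencing factors on a log axis, as deposited FPKM (left) and per kilobase of the principal transcript and scaled to library size (right), as mean and SD of 3 libraries, in the order of control FPKM. Atf7ip and Smchd1 are the genes whose place in control cells differs most between the panels.

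Genes that recruit or oppose the silencing factors moved in both directions, as did all genes tested, of which 32.2% were lower and 32.6% higher. Of 10 KRAB zinc finger genes, 8 were tested and 3 fell, Zfp30 (-0.65), Zfp932 (-0.55) and Zfp57 (-0.22), while Zfp445, which protects imprints together with Zfp57, rose (0.34, adjusted p = 0.000791, edgeR). Zfp809, which guides TRIM28 to a retroviral primer binding site, was not called (-0.07, adjusted p = 0.438, edgeR). Among 11 H3K9 demethylase genes, 10 were tested and 4 rose, Phf8 (0.58), Kdm7a (0.46), Kdm4b (0.29) and Kdm4c (0.25). A further 4 fell, Kdm1a (-0.36), Kdm4a (-0.29), Kdm3b (-0.18) and Phf2 (-0.15). The calls of Kdm3b (adjusted p = 0.0651, edgeR) and Phf2 (adjusted p = 0.0835, edgeR) were lost without control replicate 3, as was that of Kdm3b without induced replicate 1 and that of Phf2 without induced replicate 3. That of Kdm4c was lost without control replicate 2 (adjusted p = 0.0750, edgeR) or induced replicate 2, and that of Zfp57 without induced replicate 1 (adjusted p = 0.0511, edgeR). The medians of both lists, -0.13 and 0.07, were close to that of all genes tested.

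Genes known to be repressed by SMCHD1 or SETDB1 were also counted. Of 22 Pcdhb genes, the clustered protocadherins that SMCHD1 restrains, 15 were tested, 7 rose, 1 fell and 7 were not called, with a median log2 fold change of 0.42. Without Pcdhb8, which did not reach the filter's count level in every library, the median was 0.46. Among all genes tested, 32.6% were higher and 32.2% lower. One of the 7 that rose, Pcdhb2 (0.53, adjusted p = 0.0449, edgeR), lost its call with DESeq2 (adjusted p = 0.0783), with the replicate block (adjusted p = 0.0524), under library totals (adjusted p = 0.0611) and without control replicate 2 or induced replicates 2 or 3 (adjusted p = 0.0842 to 0.190, edgeR). Pcdhb14 went from 8.46 to 9.68 CPM in control to 15.7 to 17.7 CPM in induced cells (0.87, adjusted p = 4.14e-07, edgeR), with Pcdhb22 at 0.76 and Pcdhb16 at 0.49. Pcdhb21 fell by 0.33 (adjusted p = 0.0351, edgeR), a call that was lost with DESeq2 (adjusted p = 0.0874), with no filter and without control replicates 1 or 3 or induced replicates 2 or 3 (adjusted p = 0.0619 to 0.129, edgeR). Pcdhb4, which was not tested, had 9 to 15 reads in control and 1 to 4 reads in induced libraries. With no filter it was called lower (-2.20, adjusted p = 0.00361, edgeR), as it was without control replicate 3 or any 1 induced replicate. Pcdhb19 was called lower and Pcdhb18 higher under some alternatives, among them those without induced replicate 3. Genes of this family are close in sequence, and reads shared between them may have been lost or split. Of 5 imprinted genes near Snrpn, Snrpn rose (0.79), Ndn and Peg12 fell (-0.39 and -1.56), Mkrn3 was not called (but rose without control replicate 1, by 1.06, adjusted p = 0.0367, edgeR), and Magel2 had 0 reads.

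Of 8 germline genes repressed by SETDB1, only Tdrkh had enough reads to be tested, with 11.3 to 14.4 CPM in control and 7.39 to 8.98 CPM in induced cells, and it fell by 0.69 on the log2 scale (adjusted p = 6.03e-05, edgeR). Slc25a31 had 0 reads in control libraries and 8 to 14 reads in each induced library, at least 10.8-fold higher against 3 reads over the control group. Dazl, Taf7l, Mael, Fkbp6, Tex101 and Stk31 had 0 or 1 read in all control libraries together and 1 to 8 reads in all induced libraries together. Interferon-induced genes, which encode antiviral effectors, were higher in all induced than in all control libraries for 10 of 10 genes. The groups did not overlap, in either direction, for 68.6% of all genes tested. Isg15, Rsad2, Oas1a and Usp18 passed the low-count filter through the induced libraries only. The 6 genes that passed it in both groups rose with a median log2 fold change of 3.19. Ifit3 rose by 6.27, Ifit1 by 5.85 and Bst2 by 1.84 on the log2 scale. No test linked these levels to the silencing factors.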

How the data were processed

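RNA sequencing libraries of 3 control and 3 induced samples were grouped by their labels. The authors deposited raw read counts per gene, whole numbers without normalization, and FPKM values per length of joined exons. Per the labels, the submitters' processing notes name HISAT2 2.0.5, featureCounts 1.5.0-p3, DESeq2 1.16.1 and mm10, without roles or strand setting. The fold changes, p-values and Gene Ontology tables of the authors were not used.

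Counts were filtered in R 4.3.3 with edgeR 4.0.16 (filterByExpr, minimum count 10, minimum total 15; 14246 genes with 99.9% of reads), scaled by TMM, and tested over all genes with the two-sided quasi-likelihood test (prior count 0.125) and Benjamini-Hochberg adjustment at 0.05. The biological coefficient of variation was 5.82%. The script was checked on simulated counts. Standard errors were derived from the F statistics. All 6 libraries were kept apart, since pairs within a group differed beyond sampling noise (2.56 to 8.91 for chi-square over its degrees of freedom). Intervals of read ratios cover counting error only. Ratios were tested by exact permutation in SciPy 1.17.1. Promoters came from RefSeq, and exon overlaps and principal transcripts from GENCODE M21. Of the 10 genes, 9 have their M21 coordinates in the table, all but Morc2a.

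The 10 genes and the lists were chosen with earlier results of these data known. All 10 genes were to be named, with up to 3 genes of smallest p per direction of each list and each gene counted in a group of 5 or fewer. Suv39h2, Tasor, Tasor2, Morc4, Lrif1, Resf1, Atrx, Daxx and Zfp809 were added after their values were seen. The planned comparison of protein sequences was not analysed here. Alternatives were median-ratio scaling, library totals, DESeq2 1.42.0, no or a stricter filter (mean count 10, 1 CPM in 3 libraries), limma 3.58.1 on log2(FPKM + 1) or log2(FPKM + 0.1), the replicate number as a block, a threshold of 0.01, and each library left out.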

Additional observations from a re-analysis of the deposited data

How the results depend on the processing

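The 7 silencing factors called lower were lower in each of the 15 alternatives, and 0 were called higher. Of 150 fold changes of these genes under alternatives, 148 kept direction and side of the threshold. The other 2 were those of Morc2a, with a log2 fold change of -0.0086 under library totals alone and from -0.027 to 0.089 with 1 library left out. Same-numbered libraries did not deviate together (correlations -0.00, -0.02 and 0.03), and with replicate number as a block 7 silencing factors were lower and 9063 genes were called. Called genes ranged from 7783 to 9765. With 1 library left out, the log2 difference of Morc2a to Mphosph8 ran from -0.095 to 0.070 and of Morc2a to Morc3 from -0.18 to 0.010, partner genes called higher from 2 to 5 (3 with all libraries, Morc1 included), H3K9 demethylases called lower from 2 to 4, imprinted genes called higher from 1 to 2, and Pcdhb genes called lower from 0 to 2. That Pcdhb count was 2 under library totals, 0 under DESeq2 and 0 at an adjusted p of 0.01, where 2 demethylases were lower. The KRAB zinc finger genes called higher were 2 under both limma fits, and 2 germline genes were called higher with no filter. Over the 250 bases before the start alone, 1.86% of promoters held the E2F octamer, among them those of Hells and Suv39h1, and 16.0% the hexamer. The causes were not tested. Depth limits Morc1 and the germline genes other than Tdrkh, which had 0 or 1 control read each.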
